A study of Mus musculus with 16 samples.

Results

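The non-Hox homeodomain patterning factors are transcription factors of the Nkx, Irx, Pax, Pou, Lhx, Msx and Gbx families, the sine oculis family (Six2 and its relatives) and the engrailed pair. They were found by symbol: every probe set of the exon array that the platform annotation pairs with exactly 1 gene symbol was taken where that symbol starts with one of these family names and a digit, or is En1 or En2. Lhx2, Lhx6, Lhx9 and Pou4f1 were left out by rule. This gave 60 symbols of 21634, with 656 probe sets of 625534. A level could be computed for 45 of them, of 14570 genes with a level in all, and the other 15 are described on their own below. A few symbols are caught by spelling alone: Pou2af1 encodes a coactivator of POU proteins, Pax6os1, Six3os1 and Six6os1 are transcripts named for their neighbours (Six6os1 is listed in RefSeq as 4930447C04Rik), and Pax1 and Pax9 have a paired domain without a homeodomain.

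Homeodomain proteins bind short AT-rich DNA sites and set the identity of territories and cell classes along the axes of the embryo. In the neural tube, Nkx2, Nkx6, Irx, Pax and Msx proteins mark stacked progenitor domains and repress one another across their borders, and Lhx, Pax2, Pax8 and En1 mark the neuron classes that leave these domains. In the brain, Six3, Nkx2-1, En1, En2, Pax2 and Pax5 set up the forebrain, the hypothalamus and the boundary of midbrain and hindbrain, and POU class III factors act in neural progenitors and neurons.

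RNA came from CD1 mouse embryos, an outbred stock, at E18.5. The 4 groups were dKO spinal cord, WT spinal cord, dKO brain and WT brain, with 4 arrays each, 1 array for each biological replicate. The dKO embryos lacked both Nova genes, Nova1 and Nova2, whose products bind RNA in neurons and steer alternative splicing, and the WT embryos carried neither deletion. Brain means the whole brain, so a territory such as the hypothalamus is a small share of each sample.

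The level of a gene is the median of log2(intensity + 16) over its probe sets that lie above a floor of 6.73 (set at the midpoint of the means of all probe sets in rank order), and a gene needed 3 or more of them. A difference is a difference of these log2 levels, and it understates the change of dim probe sets. Changes were tested with limma over all 16 arrays, and a gene is called where limma's Benjamini-Hochberg adjusted p over all 14570 genes was under 0.05. The array number limits the precision.

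The targeted genes were low on every dKO array: Nova1 ran from 6.28 to 6.54 in dKO spinal cord against 11.52 to 11.94 in WT spinal cord, and from 4.64 to 5.51 in dKO brain against 10.0 to 10.72 in WT brain. Nova2 had smaller falls, 1.14 in spinal cord and 0.75 in brain on the log2 scale. Median intensity was 99.5 to 116 on the spinal cord arrays and 72.3 to 82.9 on the brain arrays. The mean level of 10 telencephalon genes was 8.38 on dKO brain 3 and 7.43 on WT brain 3, against 9.52 to 9.74 on the other brain arrays and 7.07 to 7.43 on the cord arrays, so the brain arrays of number 3 stand apart. The 10 genes did not all fall alike on these 2 arrays. Tbr1 was 8.04 on dKO brain 3 and 6.08 on WT brain 3. Dlx1 was 9.47 on dKO brain 3, within the 9.32 to 9.57 of the other dKO brain arrays, and 7.62 on WT brain 3. The mean level of 14 skeletal muscle genes was 9.10 and 8.71 on dKO cord 2 and 4 and 9.47 and 8.95 on WT cord 1 and 4, against 7.59 to 7.82 on the other 4 cord arrays and 7.08 to 7.30 on the brain arrays. For the genes named among the 45 with a level, calls that ended without these arrays, and values that moved by over 1.5 times, are given beside the results.

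The clearest differences among the 45 genes lay between the tissues and were alike in both genotypes. The inhibitory interneuron factors Pax2 and Pax8 were far higher in spinal cord, and Pou3f2, Lhx8 and Irx2 were far higher in brain. In dKO embryos 25 of the 45 genes were called, 55.6% against 66.4% of all genes tested, with 15 higher and 10 lower in spinal cord (33.3% and 22.2% of the 45, against 18.6% and 47.8% of all genes). In WT embryos 24 were called, 53.3% against 60.4% of all genes, again 15 higher (20.6% of all genes) and 9 lower (39.8%). The arrays of the 2 tissues did not overlap for 12 genes higher and 10 lower in dKO embryos (26.7% and 22.2%, against 17% and 46.3% of all genes) and for 9 higher and 5 lower in WT embryos (20.0% and 11.1%, against 14.6% and 26.3%). Of the 386 probe sets of these symbols above the floor, 96 were higher and 88 lower without overlap in dKO (24.9% and 22.8%, against 15.3% and 38% of all probe sets), and 71 higher and 64 lower in WT (18.4% and 16.6%, against 11.3% and 23%). In these bulk samples fewer cells of a type and less RNA per cell cannot be told apart.

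The split between higher and lower depends on the scaling. With quantile normalization between arrays, 6 genes were higher and 17 lower in dKO spinal cord, and 7 higher and 12 lower in WT spinal cord. The shares of all genes called under this scaling are not given here, so these counts describe the 45 genes alone. Of the higher calls, quantile normalization kept 6 of 15 in dKO and 7 of 15 in WT embryos, and of the lower calls 9 of 10 and 9 of 9. The median over all genes was -0.24 in dKO and -0.16 in WT embryos as deposited, and -0.25 and -0.18 after quantile normalization. Dim genes ran higher in spinal cord as a whole: the WT difference had a median of 0.27 over the 2344 genes with a mean level under 7.5, of -0.02 over those from 7.5 to 8.5 and of -0.37 over those above 8.5. Of the 45 genes, 17 lay under 7.5 (median 0.26), 23 from 7.5 to 8.5 (median 0.18) and 5 above 8.5 (median -0.20). A total of 12 genes were called the same way in both genotypes under both scalings. Pax2, Pax8, Lhx1 and Lhx4 were higher in spinal cord in all 4 fits, and Irx2, Irx3, Lhx8, Pax5, Pax6, Pou3f1, Pou3f2 and Six3os1 were lower. The 4 higher and 8 lower of 45 stand beside 6.72% and 29.1% of all genes that met the same condition. Without both brain arrays of number 3, Pax5 was called in neither genotype (-0.29 in dKO, adjusted p = 0.0525, and -0.23 in WT, adjusted p = 0.127), and the other 11 kept both calls. Without the 4 muscle-rich cord arrays, Pax5 was again called in neither (-0.35 in dKO and -0.30 in WT), Irx3 was not called in dKO (-0.35, adjusted p = 0.0841), and Lhx1 (0.45, adjusted p = 0.0591) and Lhx8 (-1.09, adjusted p = 0.0657) were not called in WT embryos. Pax2, Pax8, Lhx4, Irx2, Pax6, Pou3f1, Pou3f2 and Six3os1, 8 of the 12, kept all these calls.

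Pax2, a paired factor required for inhibitory spinal interneurons and for the midbrain-hindbrain boundary, had levels of 9.17, 9.27, 9.47 and 9.29 in dKO spinal cord, 9.34, 9.03, 9.28 and 9.07 in WT spinal cord, 7.45, 7.24, 7.38 and 7.44 in dKO brain, and 7.13, 7.09, 8.18 and 6.62 in WT brain. No cord array overlapped a brain array, and WT brain 3 was the highest of the brain arrays. The difference of spinal cord from brain was 1.92 in dKO embryos (SE 0.207, adjusted p = 1.35e-06) and 1.92 in WT embryos (SE 0.207, adjusted p = 1.35e-06), or 3.79-fold and 3.78-fold. Without both brain arrays of number 3 it was 1.92 and 2.23. All 11 of its probe sets above the floor were higher in WT spinal cord than in WT brain, by 0.26 to 2.54, and in 9 of them the arrays did not overlap.

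Pax8, a close relative of Pax2 active in the same interneurons, had levels of 9.04, 9.07, 9.01 and 8.93 in dKO spinal cord, 9.21, 9.0, 9.20 and 8.72 in WT spinal cord, 7.44, 7.56, 7.69 and 7.28 in dKO brain, and 7.37, 7.20, 7.86 and 6.64 in WT brain. The tissues did not overlap here either. The difference was 1.52 in dKO embryos (SE 0.178, adjusted p = 2.96e-06) and 1.76 in WT embryos (adjusted p = 7.08e-07), and all 15 probe sets above the floor were higher in WT spinal cord without overlap, by 0.71 to 2.80.

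Lhx4, a LIM factor of motor neurons and V2 interneurons, ran from 8.23 to 8.33 in dKO spinal cord and 8.19 to 8.36 in WT spinal cord, against 7.33 to 7.59 in dKO brain and 7.31 to 7.92 in WT brain. Its difference was 0.82 in dKO embryos (adjusted p = 1.25e-05) and 0.70 in WT embryos (adjusted p = 6.24e-05), again without overlap. It rests on dim probe sets: with the floor at the 75th percentile it was 0.03 in dKO and 0.12 in WT embryos (adjusted p = 0.915 and 0.625). Lhx1, a LIM factor of several interneuron classes, differed by 0.47 and 0.49 in the same order (adjusted p = 0.00721 and 0.00611). Of the 7 tested factors of spinal interneurons and motor neurons, these 4 were called higher in spinal cord in both genotypes, beside 15.4% of all genes. The other 3 did not pass: En1, of V1 interneurons, differed by 0.00 in dKO and 0.08 in WT embryos, Lhx5, of dorsal interneurons, by 0.06 and 0.05, and Lhx3, of motor neurons and V2 interneurons, by 0.19 and 0.39. Lhx3 depended on the floor: with all its probe sets it differed by 0.88 in dKO and 0.81 in WT embryos (adjusted p = 0.000259 and 0.00059). Without both brain arrays of number 3 its WT difference of 0.51 was called.

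Among the En1 probe sets above the floor, 1 differed far more between the tissues than the rest. Probe set 4441780 averaged 6.05 in dKO spinal cord and 5.89 in WT spinal cord, against 7.62 in dKO brain and 7.67 in WT brain, with no overlap between the tissues. The other 6 probe sets above the floor differed less, by -0.58 to 0.32 in dKO and -0.18 to 0.26 in WT embryos. Of them, 4757090 (-0.58) and 4679199 (-0.36) were lower and 4795260 (0.32) was higher in dKO spinal cord without overlap, and none was without overlap in WT embryos. Below the floor, 4388045 and 4909583 were also lower in spinal cord without overlap, by -0.93 and -1.48 in dKO and -1.18 and -1.97 in WT embryos. The positions of these probe sets in the gene were not used here.

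**Figure D1:**
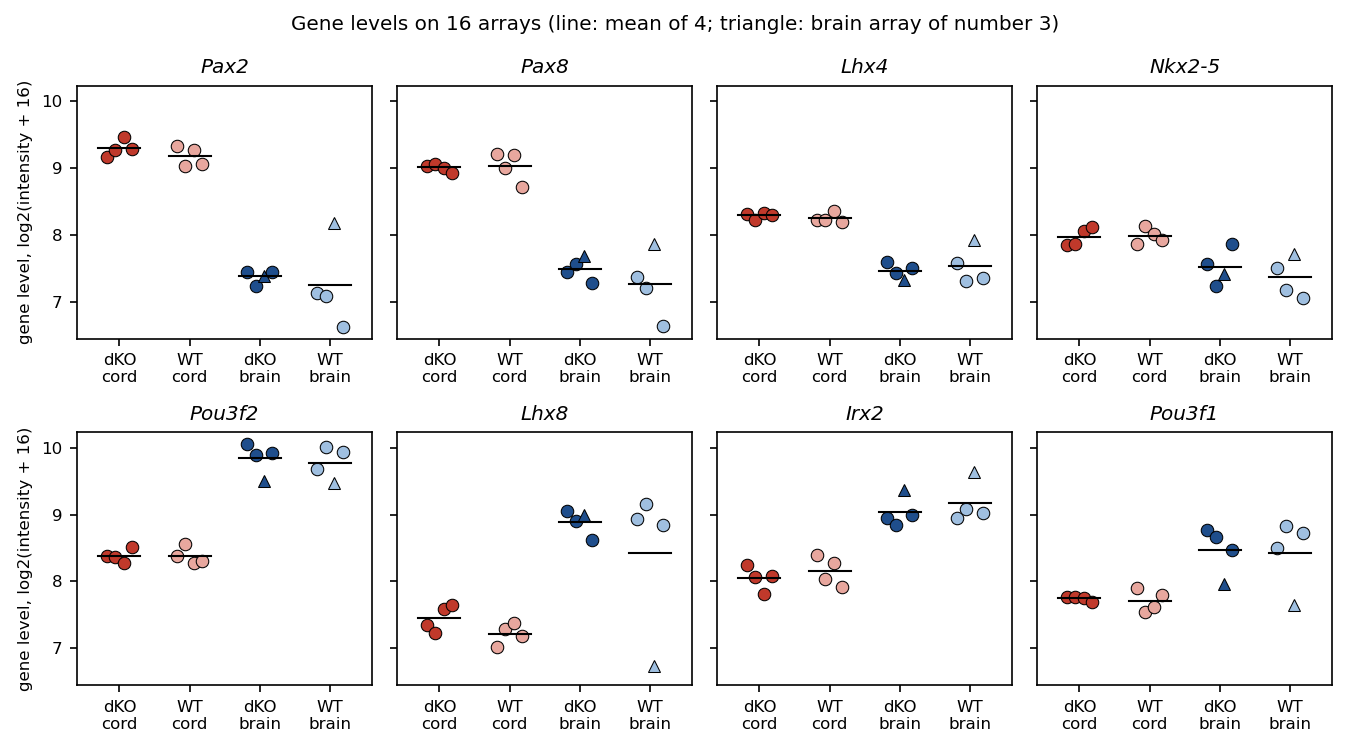
Gene levels, log2(intensity + 16), of the 8 genes with the largest WT tissue difference, on each of 16 arrays; each point is 1 array, lines are means of 4 arrays and triangles are the brain arrays of number 3. Pax2, Pax8, Lhx4 and Nkx2-5 are higher in spinal cord and Pou3f2, Lhx8, Irx2 and Pou3f1 higher in brain, in both genotypes; for Lhx8 the WT brain 3 array lies below every cord array.

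On the side of the brain, Pou3f2, also called Brn2 and a POU factor of cortical progenitors and upper-layer neurons, had levels of 8.38, 8.37, 8.28 and 8.52 in dKO spinal cord, 8.38, 8.56, 8.28 and 8.30 in WT spinal cord, 10.06, 9.90, 9.51 and 9.93 in dKO brain, and 9.68, 10.02, 9.47 and 9.94 in WT brain. Every cord array lay below every brain array, and both brain arrays of number 3 were the lowest of their groups. The difference was -1.47 in dKO (SE 0.129, adjusted p = 1.4e-07) and -1.40 in WT embryos (adjusted p = 2.33e-07), 2.76-fold and 2.64-fold lower in spinal cord.

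Irx2, an Iroquois factor, had levels of 8.24, 8.07, 7.81 and 8.08 in dKO spinal cord, 8.39, 8.03, 8.27 and 7.92 in WT spinal cord, 8.95, 8.85, 9.37 and 8.99 in dKO brain, and 8.95, 9.09, 9.64 and 9.03 in WT brain. The tissues did not overlap, and here the arrays of number 3 were the highest brain arrays. The difference was -0.99 in dKO and -1.02 in WT embryos (adjusted p = 3.12e-05 and 2.88e-05).

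Pou3f1, the POU factor Oct6 of cortex and Schwann cells, ran from 7.69 to 7.77 in dKO spinal cord and 7.54 to 7.90 in WT spinal cord. Its brain levels were 8.77, 8.66, 7.96 and 8.47 in dKO and 8.5, 8.83, 7.65 and 8.72 in WT embryos. WT brain 3 fell inside the range of the cord arrays and dKO brain 3 just above it. The difference was -0.72 in dKO and -0.71 in WT embryos (adjusted p = 0.00391 and 0.00499), and without both brain arrays of number 3 it was -0.89 and -0.97. With the floor at the 75th percentile it was -0.35 and -0.27, and the WT call ended (adjusted p = 0.0926). Pou3f3, the third tested member of the class, differed by -0.33 in dKO (adjusted p = 0.0302) and by -0.13 in WT embryos (adjusted p = 0.382); the dKO call ended without the 4 muscle-rich cord arrays (-0.33, adjusted p = 0.115), and without the number 3 arrays WT embryos were called too (-0.28).

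The 250 bases before the annotated start of 4 of these genes are printed because Pax2 and Pax8 had the largest differences towards spinal cord, and Pou3f2 and Irx2 are among the 4 largest towards brain. They are RefSeq sequences of assembly GRCm38.p6, written 5′ to 3′ on the gene's strand, with CG dinucleotides in capitals. Pax2 has 3 annotated starts, of which the first listed is shown.
Pax2, chr19:44746351-44746600, plus strand: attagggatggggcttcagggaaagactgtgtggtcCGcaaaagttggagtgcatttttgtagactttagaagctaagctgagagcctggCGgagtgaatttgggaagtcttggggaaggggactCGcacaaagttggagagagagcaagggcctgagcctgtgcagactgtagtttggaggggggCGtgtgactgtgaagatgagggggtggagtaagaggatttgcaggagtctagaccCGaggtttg
Pax8, chr2:24475600-24475849, minus strand: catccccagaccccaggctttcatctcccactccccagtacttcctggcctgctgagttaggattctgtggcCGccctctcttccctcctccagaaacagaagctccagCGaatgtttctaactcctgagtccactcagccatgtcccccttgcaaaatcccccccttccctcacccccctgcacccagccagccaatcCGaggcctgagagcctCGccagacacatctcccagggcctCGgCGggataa
Pou3f2, chr4:22488367-22488616, minus strand: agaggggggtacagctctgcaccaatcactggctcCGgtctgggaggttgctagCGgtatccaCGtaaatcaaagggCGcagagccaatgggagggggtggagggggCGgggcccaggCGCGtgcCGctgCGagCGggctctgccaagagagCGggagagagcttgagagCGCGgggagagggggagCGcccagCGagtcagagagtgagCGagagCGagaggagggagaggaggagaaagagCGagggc
Irx2, chr13:72628570-72628819, plus strand: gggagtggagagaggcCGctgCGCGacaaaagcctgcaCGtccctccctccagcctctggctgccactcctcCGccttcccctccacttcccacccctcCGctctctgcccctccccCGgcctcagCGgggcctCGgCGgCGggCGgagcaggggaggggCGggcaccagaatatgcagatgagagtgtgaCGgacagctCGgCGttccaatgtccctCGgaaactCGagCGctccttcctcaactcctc

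The windows hold 5 CG dinucleotides for Pax2, 6 for Pax8, 18 for Pou3f2 and 19 for Irx2. These counts did not sort the other genes by tissue. Lhx8, higher in brain, had 4, and Lhx1 and Lhx4, higher in spinal cord, had 26 and 14. A window was found for 46 of the 60 symbols, and its median was 15 CG dinucleotides, against 6 over all 32851 windows. Median GC content was 61.8%, against 52.4% over all windows. The homeodomain core TAATTA, which reads the same on both strands, was in 2 of the 46 windows (4.35%) and in 4.84% of all windows. The POU octamer ATGCAAAT, searched on both strands, was in 0 of 46 and in 1.6% of all windows. The 2 motifs share no overlapping match by their letters. These are descriptions of the letters in these windows.

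Lhx8, a LIM factor of the basal forebrain and its cholinergic neurons, showed how 1 array and the choice of probe sets bear on a level. It had 7.35, 7.22, 7.59 and 7.64 in dKO spinal cord, 7.02, 7.29, 7.37 and 7.18 in WT spinal cord, 9.05, 8.90, 8.99 and 8.62 in dKO brain, and 8.94, 9.16, 6.74 and 8.85 in WT brain. WT brain 3, the array with the lowest telencephalon score, lay below every cord array, while dKO brain 3 lay among the other dKO brain arrays. The difference of spinal cord from brain was -1.44 in dKO embryos (SE 0.334, adjusted p = 0.00104) and -1.21 in WT embryos (SE 0.334, adjusted p = 0.00465), and without both brain arrays of number 3 it was -1.41 and -1.77. Probe sets 4571238, 4577308, 4837638 and 5379662 carried it. In dKO embryos, for example, 4837638 ran from 6.90 to 7.26 in spinal cord and from 8.78 to 9.54 in brain, while the bright probe set 5044778 ran from 10.38 to 10.53 in spinal cord and from 10.02 to 10.51 in brain. With the floor raised to the 75th percentile only bright probe sets were left, and the difference turned to 0.25 in dKO and 0.37 in WT embryos.

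**Figure D2:**
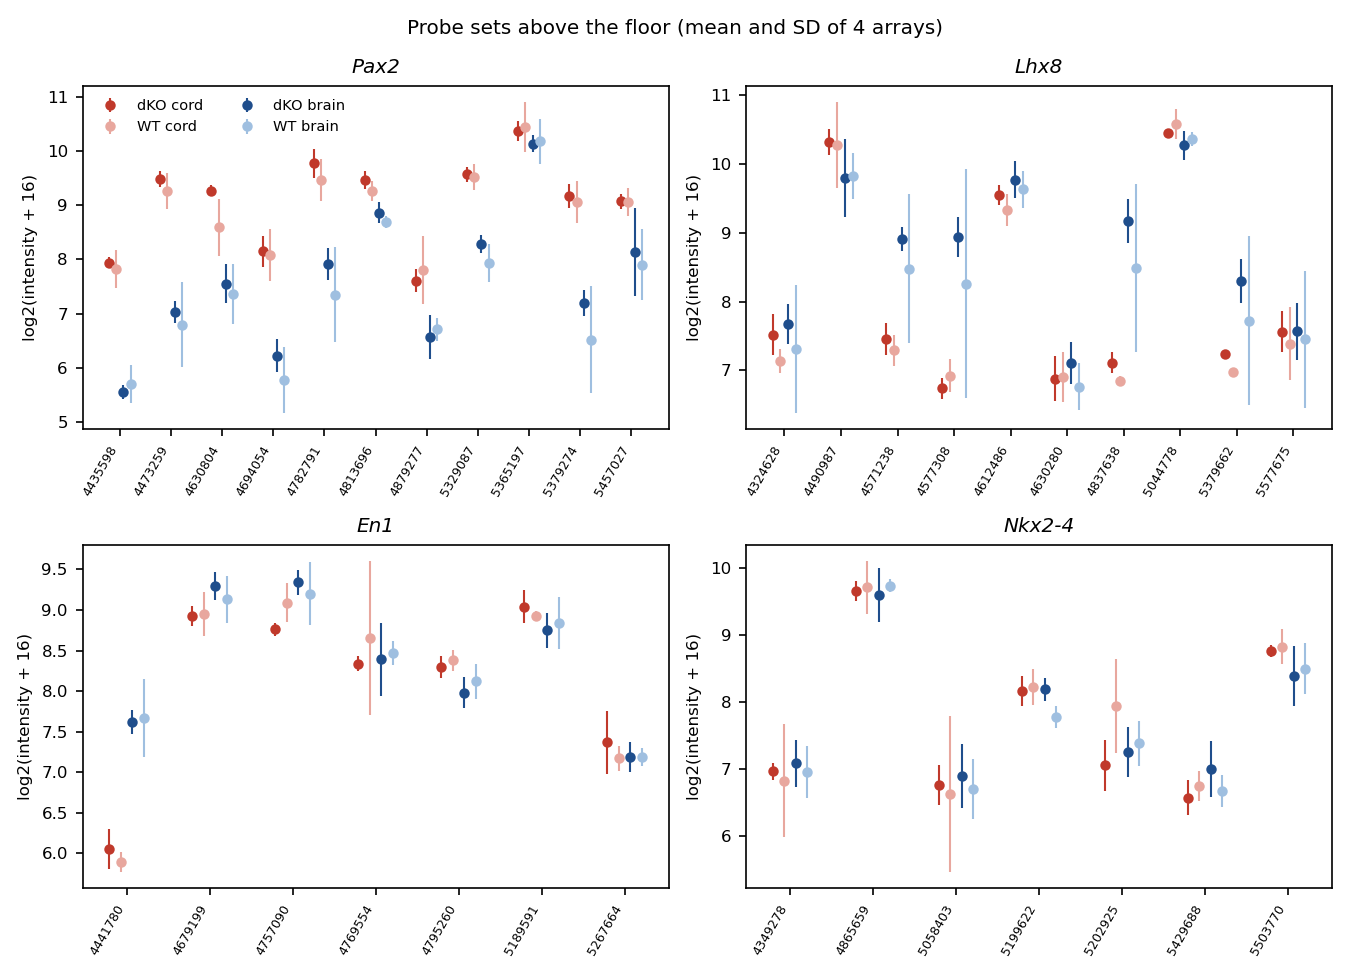
Probe sets above the floor of Pax2, Lhx8, En1 and Nkx2-4, by identifier, with the mean and SD of 4 arrays per group in log2(intensity + 16). All Pax2 probe sets are higher in spinal cord, 4 of Lhx8 (4571238, 4577308, 4837638 and 5379662) and 1 of En1 (4441780) are higher in brain by over 0.7 in both genotypes, and 1 of Nkx2-4 (5202925) is lower in dKO than in WT spinal cord.

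The progenitor factors differed less. Of 7 tested ventral progenitor factors, 2 were called higher and 2 lower in dKO spinal cord than in dKO brain, and 3 higher and 2 lower in WT, beside 18.6% and 47.8% of all genes in dKO and 20.6% and 39.8% in WT embryos. Pax6, of ventral progenitors, cortex and eye, differed by -0.45 in dKO (SE 0.0889, adjusted p = 0.000273) and -0.46 in WT embryos (adjusted p = 0.000283), without overlap. Its 26 probe sets above the floor went both ways, from -1.78 to 1.80 in dKO and -1.85 to 1.73 in WT embryos. In dKO 16 were lower and 3 higher without overlap, beside 38% and 15.3% of all probe sets. In WT embryos 17 were lower and 2 higher, beside 23% and 11.3%. Irx3, of intermediate progenitors, differed by -0.51 and -0.39 in the same order (adjusted p = 0.0032 and 0.0191). Nkx6-1, of ventral progenitors and motor neurons, differed by 0.33 in dKO and 0.59 in WT embryos (adjusted p = 0.0378 and 0.0011), and Nkx6-3 by 0.27 and 0.44 (adjusted p = 0.0149 and 0.000616). Nkx2-2, of the most ventral progenitors and of oligodendrocyte precursors, differed by 0.18 in dKO (adjusted p = 0.232) and was called in WT embryos alone, with 0.39 (adjusted p = 0.0175), and the difference between the genotypes was not called (adjusted p = 0.837). Without the 4 muscle-rich cord arrays, Nkx6-3 in dKO (0.24, adjusted p = 0.0624) and Nkx2-2 in WT embryos (0.38, adjusted p = 0.0711) were not called. No tested dorsal factor was called: Pax3, Pax7, Msx1 and Msx3 differed by -0.16 to 0.15 in dKO and -0.27 to 0.04 in WT embryos.

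Pax5, of the midbrain-hindbrain boundary, ran from 7.07 to 7.33 in dKO spinal cord and 6.99 to 7.54 in WT spinal cord, against 7.39 to 7.99 in dKO brain and 7.34 to 8.15 in WT brain. It differed by -0.41 and -0.39 (adjusted p = 0.0334 and 0.0416), calls that ended without the arrays named above. WT brain 3 was its highest WT brain array, at 8.15. Gbx2, of the anterior hindbrain, did not pass (0.02 in dKO, 0.25 in WT). Among the Iroquois genes, Irx1 was not called in dKO embryos (-0.22, adjusted p = 0.149) and was lower in WT spinal cord than in WT brain (-0.39, adjusted p = 0.0169; -0.30 without the number 3 arrays, adjusted p = 0.0602, and -0.14 without the muscle-rich arrays, adjusted p = 0.383), and Irx4, Irx5 and Irx6 were called in neither genotype. Irx1, Irx2 and Irx4 lie side by side on chromosome 13, and Irx3, Irx5 and Irx6 on chromosome 8, with 0 protein-coding genes between neighbours in RefSeq. Each cluster thus held members that were called lower in spinal cord in both genotypes, Irx2 and Irx3, beside members called in neither.

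Of 8 tested factors known mainly from mesoderm and endoderm, 5 were called higher in spinal cord in each genotype as the authors scaled the arrays, with medians of 0.39 in both, beside 18.6% of all genes in dKO, 20.6% in WT and, in WT, 47.4% of those with a mean level under 7.5. Without the 4 muscle-rich cord arrays, Nkx2-5 (0.44, adjusted p = 0.0632), Nkx3-2 (0.13, adjusted p = 0.469) and Pax1 (0.40, adjusted p = 0.0826) were not called in dKO and Nkx2-3 (0.43, adjusted p = 0.136) was not called in WT embryos. With quantile normalization 1 of 8 was called in each, Pax4 in dKO (0.87) and Nkx2-5 in WT (0.39), and Irx4 (-0.12 in dKO, -0.25 in WT) and Pax9 (-0.06 in dKO) turned to the other side. The share of all genes called under that scaling is not given here. Nkx2-5, of the heart, had levels of 7.85, 7.87, 8.06 and 8.12 in dKO spinal cord, 7.86, 8.13, 8.01 and 7.92 in WT spinal cord, 7.57, 7.24, 7.41 and 7.87 in dKO brain, and 7.51, 7.18, 7.72 and 7.06 in WT brain. Its difference was 0.46 in dKO (adjusted p = 0.00939) and 0.61 in WT embryos (adjusted p = 0.00138), and with quantile normalization the dKO value was 0.24 and its call ended (adjusted p = 0.169). Nkx2-6, of the pharyngeal arches and heart, differed by 0.53 and 0.48 (adjusted p = 0.00851 and 0.0157), and neither call held with quantile normalization (0.41 and 0.35). Cartilage and bone genes, 9 with a level, averaged 8.0 to 8.47 on dKO and 8.01 to 8.36 on WT cord arrays, against 7.58 to 7.71 on dKO and 7.54 to 7.72 on WT brain arrays. The part of such tissue, and of the general rise of dim genes, in these differences was not tested.

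Agreement between the genotypes was close. The dKO and WT tissue comparisons share no array, and 40 of the 45 genes had the same sign in both. Across the 45 genes the 2 differences had a Pearson r of 0.932 and a Spearman rho of 0.861, and over all genes r was 0.915; genes are not independent replicates, and arrays of one tissue share its overall brightness. Called in both genotypes were 11 genes higher and 8 lower in spinal cord (24.4% and 17.8%, against 15.4% and 36.5% of all genes).

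**Figure D3:**
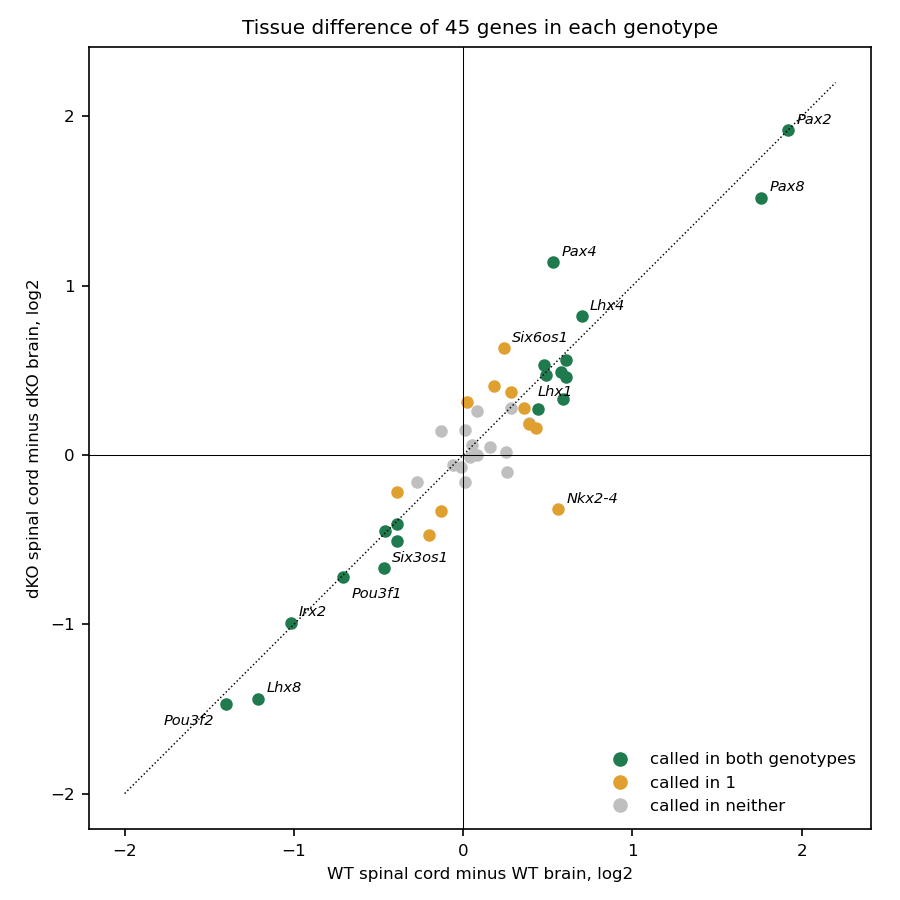
Log2 difference of spinal cord from brain in dKO embryos (vertical) and WT embryos (horizontal) for 45 genes, coloured by whether limma called them in both genotypes, in 1 or in neither; the dotted line marks equal values. Pax2 and Pax8 lie far to the upper right, Pou3f2, Lhx8 and Irx2 to the lower left, and Nkx2-4 (-0.32 in dKO, 0.56 in WT) off the line.

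The 15 symbols without a level had fewer than 3 probe sets above the floor, and several of them still separated the tissues. En2, the hindbrain and cerebellar relative of En1, had probe set 5277710 at 6.80 to 7.37 in dKO and 6.93 to 7.33 in WT spinal cord, against 8.03 to 8.63 in dKO and 8.42 to 9.04 in WT brain. Pou3f4, the POU class III factor Brn4, had probe set 5525343 at 7.86 to 8.10 in dKO and 7.04 to 7.82 in WT spinal cord, against 9.77 to 10.03 in dKO and 9.28 to 9.95 in WT brain. Nkx2-1, of the hypothalamus and ventral forebrain, had probe set 5588413 at 6.32 to 6.78 in dKO and 5.79 to 6.82 in WT spinal cord, against 8.28 to 8.87 in dKO and 8.34 to 8.71 in WT brain. In each of these 3 probe sets every cord array lay below every brain array. Nkx1-1 showed the opposite order on its only probe set, 5349725, with 9.25 to 9.50 in dKO and 9.20 to 9.64 in WT spinal cord, against 8.23 to 8.55 in dKO and 7.76 to 8.37 in WT brain.

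Without a floor, 12 of these 15 had at least 3 probe sets and could be fitted among 19447 genes. En2 then differed between spinal cord and brain by -1.84 in dKO and -2.09 in WT embryos (limma adjusted p = 4.15e-06 and 9.44e-07), Nkx2-1 by -0.88 and -1.21 (adjusted p = 9.78e-05 and 7.71e-06), and Six3, of the anterior forebrain and eye, by -0.63 and -1.04 (adjusted p = 0.00366 and 0.000106). Pou3f4 differed by -1.53 in dKO (adjusted p = 0.000273) and by -0.60 in WT embryos (adjusted p = 0.0822); between the genotypes in spinal cord it changed by -0.58 (adjusted p = 0.307), while its probe set 5525343 was higher on every dKO than on every WT cord array. Higher in spinal cord were Pax6os1 by 0.62 and 0.49 (adjusted p = 0.000878 and 0.00551), Gbx1, of dorsal spinal interneurons, by 0.48 and 0.54 (adjusted p = 0.0212 and 0.013) and Six5 by 0.37 and 0.32 (adjusted p = 0.0156 and 0.037). Pou5f1, the pluripotency factor Oct4, and Pou4f3, of hair cells, were called higher in WT embryos alone, by 0.67 and 0.38 (adjusted p = 0.00771 and 0.0493), and differed by 0.43 and 0.37 in dKO embryos (adjusted p = 0.0617 and 0.0505). Each of these 5 has fewer than 3 probe sets above the floor, as have En2, Nkx2-1, Six3 and Pou3f4. Dim genes ran higher in spinal cord as a whole, and the part of that rise in these differences was not tested. Msx2, Nkx1-2 and Six4 were called in neither genotype, and Nkx2-9, Pou5f2 and Nkx1-1 had too few probe sets to fit.

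In brain, loss of Nova1 and Nova2 changed the level of none of these genes past the test: 0 of 45 were called by limma, against 0.268% of all genes (0.0755% higher, 0.192% lower), and 1 of 45 had an unadjusted p under 0.05, against 5.33% of all genes. The median change was 0.05, beside 0.02 over all genes. The 95% interval lay within 0.5 of no change for 38 genes and within 1 for 44, with Lhx8 the exception. Arrays did not overlap for 1 gene that was higher (2.22%, against 2.17% of all genes) and 0 that were lower (against 1.83%), and for 3 probe sets higher and 1 lower of 386 (0.777% and 0.259%, against 1.89% and 1.79%).

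The largest changes that did not pass in brain were those of Lhx8, Lhx3, Six3os1 and Lhx1. For Lhx8 the change was 0.47 (SE 0.334, adjusted p = 1) and rests on WT brain 3 alone: without that array it was -0.09, and without both brain arrays of number 3 it was -0.12. Lhx3 had 7.5, 7.88, 7.83 and 7.99 in dKO brain against 6.96, 7.30, 7.78 and 7.65 in WT brain, a change of 0.38 with overlapping arrays (SE 0.201, adjusted p = 1). Six3os1 had 7.84, 7.92, 8.21 and 7.75 in dKO brain against 7.67, 7.75, 7.59 and 7.67 in WT brain, a change of 0.26 (SE 0.118, adjusted p = 0.909). Lhx1 had 8.22, 8.20, 8.68 and 8.32 in dKO brain against 7.95, 8.13, 8.61 and 7.82 in WT brain, a change of 0.23 (SE 0.142, adjusted p = 1). Taken by array number, which pairs the brain arrays, Lhx3, Six3os1 and Lhx1 were each higher in dKO brain in 4 of 4 pairs, by 0.54, 0.58, 0.06 and 0.34 for Lhx3 and 0.27, 0.07, 0.07 and 0.50 for Lhx1. That held for 4 of the 45 genes (8.89%) and for 11.4% of all genes. With the number as a block, limma gave adjusted p-values of 0.667 for Lhx3, 0.61 for Six3os1 and 0.649 for Lhx1.

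Many of these genes stood apart on the brain arrays of number 3. On dKO brain 3, 21 of the 45 genes had their highest value of 4 arrays and 7 their lowest, against 25.4% and 29.7% of all genes. On WT brain 3 the counts were 33 and 6, against 25.8% and 48.0% of all genes. Relative to the mean of the other 3 arrays of its group, Pax2 differed by 0.00 on dKO brain 3 and 1.24 on WT brain 3, Pax3 by 0.53 and 0.81, and Pou3f1 by -0.68 and -1.03. These arrays also had the low telencephalon scores given above, and the part of brain region in these values was not tested.

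**Figure D4:**
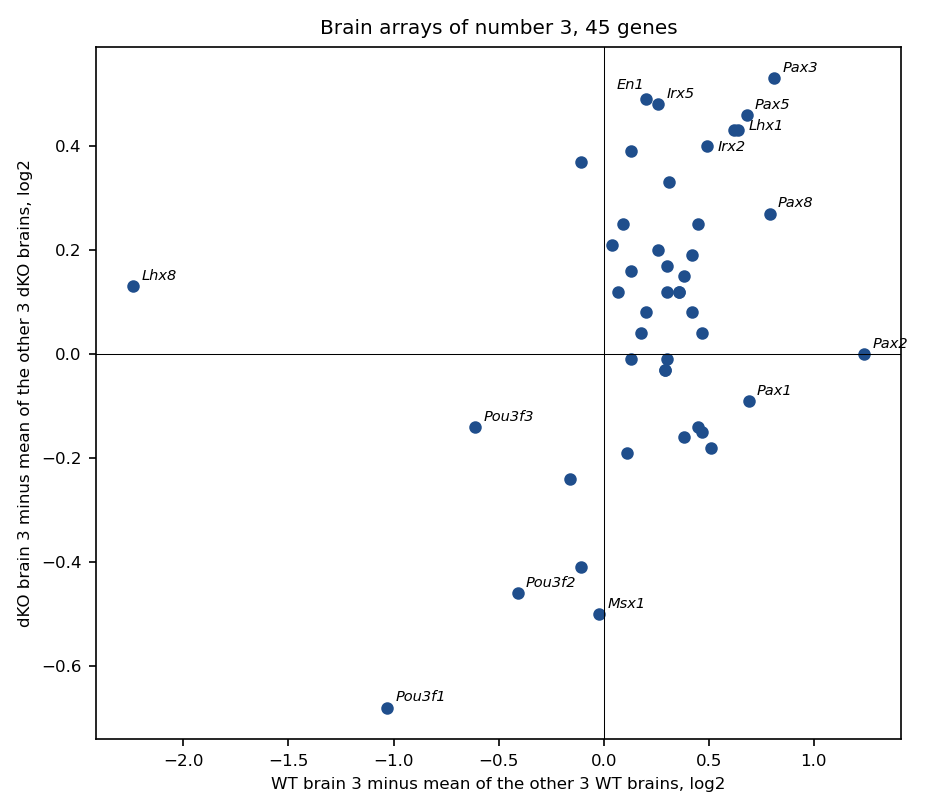
Level on the brain array of number 3 minus the mean of the other 3 brain arrays, in dKO (vertical) and WT embryos (horizontal), log2, for 45 genes. Most genes lie to the right of 0 with Pax2 farthest right (1.24), while Lhx8 and Pou3f1 lie far to the left.

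In spinal cord, Nkx2-4 fell and Pax4 rose in dKO embryos, and no other gene of the 45 was called. That is 2 of 45 (4.44%), against 5.63% of all genes (1.08% higher, 4.55% lower), so the share was near the background. The median change was 0.03, beside -0.03 over all genes, and the 95% interval lay within 0.5 of no change for 36 genes and within 1 for 44, with Nkx2-4 the exception. The arrays of these 2 genes did not overlap (1 higher and 1 lower, 2.22% each, against 3.9% and 7.62% of all genes), and among 386 probe sets 17 were higher and 4 lower without overlap (4.4% and 1.04%, against 3.75% and 6.03%). Nkx2-4, a hypothalamic relative of Nkx2-1, had 7.28, 6.98, 7.38 and 7.03 in dKO spinal cord against 7.62, 7.83, 8.35 and 7.88 in WT spinal cord, without overlap. The change was -0.76 (SE 0.155, adjusted p = 0.00632), and in brain it was 0.12. Of its 7 probe sets above the floor only 5202925 had a large fall, with 7.28, 6.51, 7.38 and 7.03 in dKO against 7.62, 7.31, 8.92 and 7.88 in WT spinal cord, which overlap. The level is a median, and the probe set that set it differed between arrays. On WT cord 2 and 3 it was 5199622 (7.83 and 8.35), and on dKO cord 2 it was 4349278 (6.98). The other 6 changed by -0.17 to 0.14, and with the mean over probe sets in place of the median the change was -0.14 (adjusted p = 0.472).

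Pax4, a paired factor of the endocrine pancreas and retina, had 7.87, 8.40, 7.88 and 8.0 in dKO spinal cord against 7.47, 7.62, 7.80 and 7.41 in WT spinal cord, again without overlap. The change was 0.47 (SE 0.133, adjusted p = 0.0444), and in brain it was -0.14. All 5 probe sets above the floor were higher in dKO spinal cord, by 0.09 to 0.66, of 14 probe sets in all. With no floor, the median over all 14 changed by 0.08 (limma adjusted p = 0.797), so the rise was seen only over these 5. The call with the floor was near the threshold: leaving out any of 6 of the 8 cord arrays ended it, and without the 4 cord arrays rich in muscle genes the change was 0.17 (adjusted p = 0.726). Without those arrays neither gene was called (Nkx2-4 -0.76, adjusted p = 0.122). Levels of 10 meninges and fibroblast genes averaged 8.46, 9.21, 8.37 and 9.23 on the dKO and 8.34, 8.48, 8.60 and 8.69 on the WT cord arrays. The array with the highest Pax4, dKO cord 2, was one of those high in these genes and in muscle genes. WT cord 1 and 4, with muscle scores of 9.47 and 8.95, had the lowest WT Pax4 levels, 7.47 and 7.41. The part of such tissue in the Pax4 change was not tested.

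**Figure D5:**
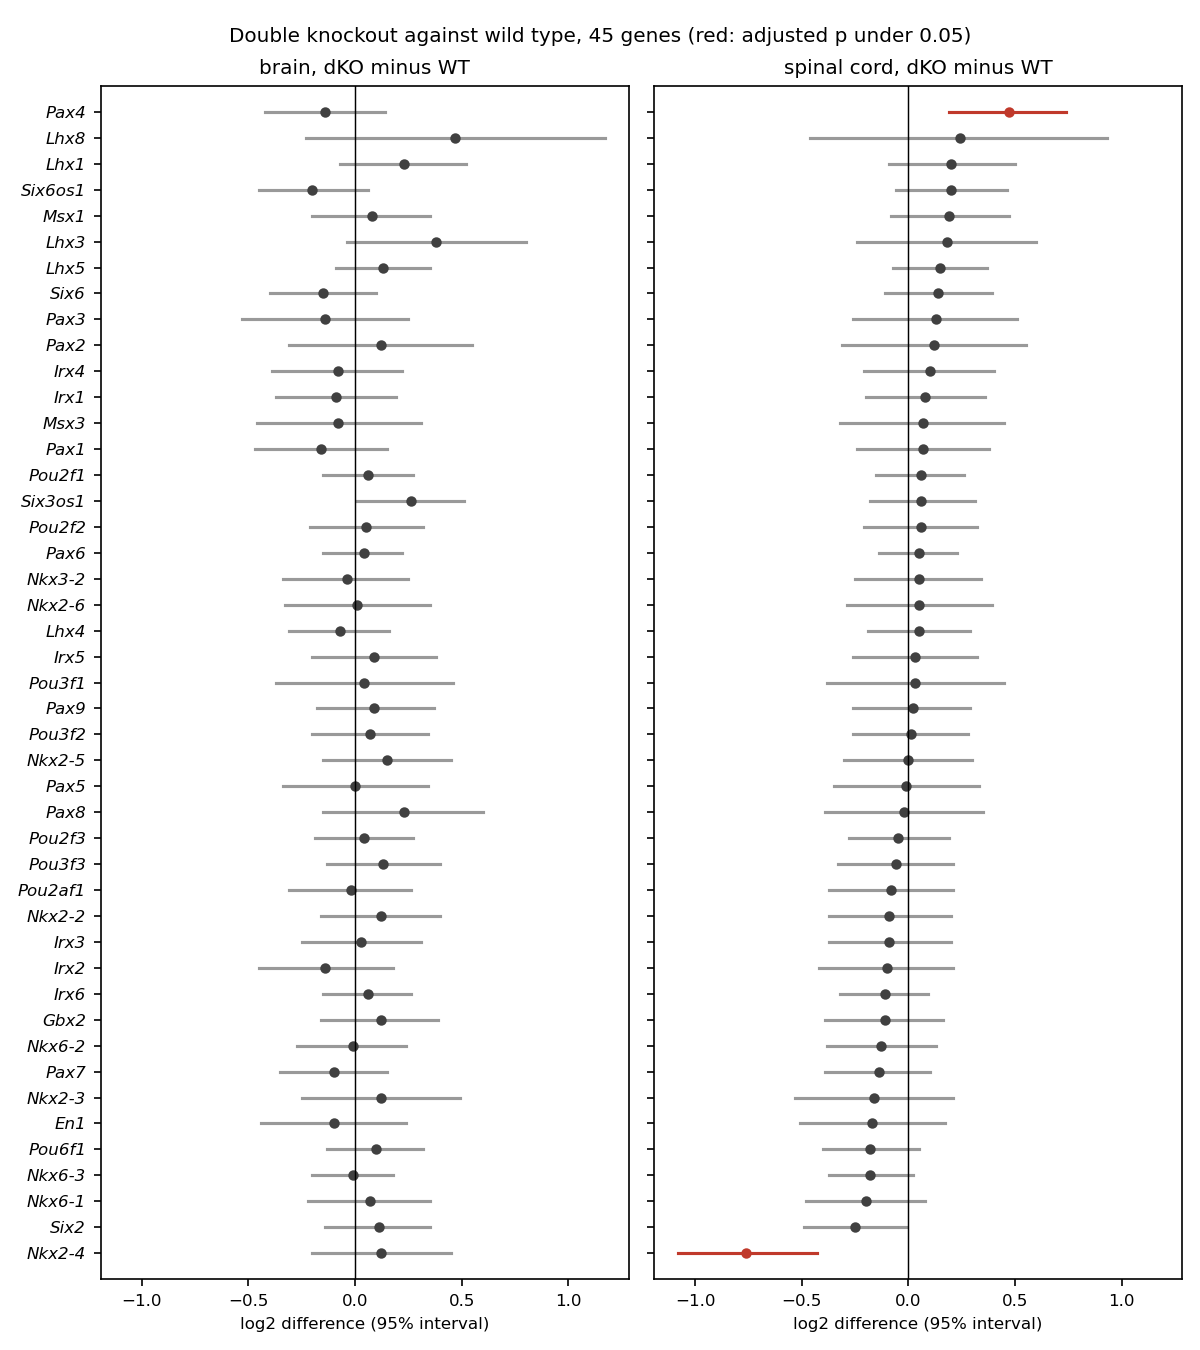
Log2 difference of dKO from WT in brain (left) and spinal cord (right) for 45 genes, with 95% intervals from limma, ordered by the spinal cord value; red marks an adjusted p under 0.05. Nearly all intervals cross 0, and Nkx2-4 (-0.76) and Pax4 (0.47) are the 2 called genes, both in spinal cord.

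Among genes that did not pass in spinal cord, Six2, a factor of kidney and head mesenchyme, had 7.62, 7.42, 7.14 and 7.47 in dKO against 7.76, 7.55, 7.70 and 7.64 in WT spinal cord (-0.25, adjusted p = 0.241). Lhx8 differed by 0.24 (adjusted p = 0.771) and Lhx1 by 0.20 (8.90, 8.78, 8.87 and 8.75 in dKO against 8.79, 8.65, 8.51 and 8.53 in WT; adjusted p = 0.472). Six6os1 had 7.54, 7.95, 7.72 and 7.73 in dKO against 7.68, 7.82, 7.36 and 7.27 in WT spinal cord (0.20, adjusted p = 0.403). All 10 Lhx1 probe sets above the floor were higher in dKO spinal cord and 3 of them did not overlap. Pax2 and Pax8, the genes with the largest tissue difference, changed by 0.12 and -0.02.

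Six3, which has no level, was called only without a floor: 0.63 higher in dKO spinal cord (SE 0.164, adjusted p = 0.0403) over 4 probe sets that changed by 0.92, 0.51, 0.16 and -0.44. Its probe set 4821755 had 6.29, 6.77, 6.48 and 6.65 in dKO against 4.27, 5.85, 6.15 and 6.24 in WT spinal cord, levels near or below the floor. In the same fit Pax4 differed by 0.08 and Nkx2-4 by -0.11, and neither was called.

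The change in spinal cord was not shown to differ from that in brain for any gene: limma called 0 of 45 and 0 of 14570 (0% of all genes), with an unadjusted p under 0.05 for 4 of the 45 and for 8% of all genes. Nkx2-4 had the largest difference of the changes, -0.88 (SE 0.219, adjusted p = 0.238), and Pax4 the largest positive one, 0.61 (SE 0.188, adjusted p = 0.368).

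Nova proteins act on splicing, so each probe set was also read relative to its gene. The exon index is a probe set's log2 value minus the gene's level on that array. It was taken where a gene had 5 or more probe sets over the floor, leaving 335 probe sets of 36 of these genes. In brain limma called 0 of 335, against 0.15% of all probe sets, with 13 (3.88%) at an unadjusted p under 0.05, against 3.3% of all probe sets. In spinal cord it called 1 of 335, against 0.388%, with 33 (9.85%) at an unadjusted p under 0.05, against 11.8%. That was probe set 4504429 of Pax8, whose exon index was -0.57, -0.63, -0.63 and -0.67 in dKO spinal cord against -1.51, -1.45, -1.63 and -1.67 in WT spinal cord. The change was 0.94 (SE 0.185, adjusted p = 0.0391), with a wide gap between the groups. Its log2 value was 8.48, 8.43, 8.38 and 8.25 in dKO against 7.70, 7.55, 7.57 and 7.05 in WT spinal cord, while the level of Pax8 changed by -0.02. In brain, where the probe set lies near or below the floor, the index was -0.86, -0.60, -0.78 and -1.46 in dKO against -1.41, -0.90, -1.87 and -1.64 in WT, a change of 0.53 that did not pass (adjusted p = 1). The spinal cord change was 0.90 to 0.98 when any 1 cord array was left out, with adjusted p-values of 0.0605 to 0.11. A spliced exon, another start or end of the transcript and a sequence variant under the probes cannot be told apart by 1 probe set.

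Partners of these factors were counted from lists chosen with earlier results of these data known. In brain none of 10 LIM cofactors, 6 Eya and Dach genes, whose products bind Six2 and its relatives, 9 genes of the Sonic hedgehog pathway, 5 Groucho corepressors and 24 other transcription factors of neural tube classes was called. In spinal cord Dach1 alone was called. It had 9.72, 9.61, 9.78 and 9.54 in dKO against 9.37, 9.08, 9.29 and 9.24 in WT spinal cord, without overlap. The rise was 0.42 (SE 0.105, limma adjusted p = 0.0227), and alternative fits are not given for this gene. Over all genes, 0.268% were called in brain. In spinal cord 5.63% were called, 1.08% higher and 4.55% lower. Six2 and Six6 changed by -0.25 and 0.14 there and were not called. Between the tissues, 9 of 10 LIM cofactors were lower in dKO spinal cord and 8 of 10 in WT spinal cord than in brain, with medians of -0.67 and -0.68. Beside these counts, 47.8% of all genes were lower in dKO and 39.8% in WT spinal cord, and 60.9% of those with a mean level over 8.5 in WT; the mean level of the 10 cofactors was 9.44 to 9.60 on dKO cord, 9.29 to 9.66 on WT cord, 10.05 to 10.35 on dKO brain and 9.82 to 10.31 on WT brain arrays.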

How the data were processed

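The authors deposited linear PLIER intensity values per probe set, between 3e-05 and 57832.67; the submitters' processing notes name Affymetrix Power Tools and build mm8, and no version or setting. Trizol was used for extraction of total RNA and biotin for labelling, per the labels' protocols. Groups and replicate numbers came from the sample titles. The platform annotation gives 1 symbol for 303629 probe sets, several for 5892 and none for 316013. Of the 60 member symbols, 59 are current in RefSeq of assembly GRCm38.p6. All positions printed are of that assembly, and positions of probe sets were not used. No detection calls were used, so a level near the floor may hold little signal.

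From the deposited values, log2(intensity + 16) was computed, and gene levels and exon indices as described above (193126 probe sets of 12340 genes for the exon index). Group means were compared by moderated linear models (limma 3.58.1 on R 4.3.3; files were read by the data.table package, version 1.17.8), two-sided, with Benjamini-Hochberg adjustment within each of 5 comparisons. The functions were tested on simulated data. The genes, lists and named-gene rule were chosen with earlier results of these data known, and lists are described by counts alone. Values by array are given for genes called in a genotype comparison, for the 8 largest WT tissue differences and for the 4 largest uncalled changes per genotype comparison. En1, the genes without a level and single probe sets were chosen after their values were seen. Alternatives were pseudocounts of 1 and 64, no floor or a 75th percentile floor, means over probe sets, quantile normalization, array weights, a replicate block, fits of the compared arrays alone, and fits without single arrays, without the brain arrays of number 3 or without 4 muscle-rich cord arrays.

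Same-numbered dKO and WT brain arrays deviated together (correlations of 0.212 to 0.407 over genes, 4 of 4 best with their own number), so the numbers pair the brain arrays; in spinal cord the correlations were -0.12 to -0.00296, and no pairing was taken there. Correlations of gene levels between arrays of a group were 0.9457 to 0.9868, with no identical arrays.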

Additional observations from a re-analysis of the deposited data

Results flagged for a closer look

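In 7 of 180 groups of 4 arrays (45 genes in 4 groups), 1 array lay far from the other 3 by Dixon's test (3.89%; chance flags about 1 in 20 groups). On WT brain 3, Lhx8 had a level of 6.74 against 8.85 to 9.16 on the other WT brain arrays, and Pax3, of dorsal progenitors, had 8.02 against 7.16 to 7.27. That array also had the lowest telencephalon score of the brain arrays. On WT cord 3, Irx3 had 7.19 against 7.59 to 7.62, Irx4 had 6.81 against 7.18 to 7.25, and Irx6 had 7.60 against 7.36 to 7.40. On WT cord 2, Nkx3-2, of sclerotome and gut, had 8.08 against 7.52 to 7.60. On WT cord 1, the ubiquitous POU factor Pou2f1 had 8.89 against 8.54 to 8.59, on an array that was the highest of its 4 in 57.5% of all genes.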

How the results depend on the processing

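In brain the count of called genes was 0 in every alternative. In spinal cord it was 2, and became 1 with a pseudocount of 1, with the mean over probe sets, with only the compared arrays and with no floor (Six3 alone, among 57 genes tested), and 0 with the 75th percentile floor (17 of the 45 genes tested) or without the 4 muscle-rich cord arrays; it was 1 to 2 when single arrays were left out. Nkx2-4 kept its sign in 17 of 17 alternatives (-0.88 to -0.11) and its call in 13; Pax4 kept its sign in 17 of 17 (0.08 to 0.54) and its call in 8. For the difference of the changes, array weights gave 1 gene in place of 0; no fit of the compared arrays alone exists for it, since it uses all 16. With the 75th percentile floor the tissue counts were 11 of the 17 genes tested, in place of 25 of 45, in dKO embryos. In WT embryos they were 9 of 17 in place of 24 of 45. The shares of all genes called with that floor are not given here, so these counts describe the 17 genes alone. The exon index count in brain was 0 to 1 without single arrays (Six3os1, probe set 4657521, without dKO brain 1). In spinal cord it was 0 with a pseudocount of 1 or the 75th percentile floor, 2 with quantile normalization (Pax8 and Irx3) and 0 to 1 without single arrays; in 2 of those fits the called probe set belonged to Six2 or Irx3, not Pax8. Signs turned for Lhx8 between the tissues (0.25 in dKO and 0.37 in WT) and for Six3os1 in brain (-0.06), all with the 75th percentile floor; for Lhx8 in brain without WT brain 3 (-0.09; -0.09 to 0.72 over all single arrays left out) or without both arrays of number 3 (-0.12); and for Six6os1 in spinal cord with no floor (-0.06) or the mean over probe sets (-0.01). The causes were not tested, beyond the fewer genes and probe sets of a higher floor. With the replicate block the counts of called genes stayed at 0 in brain, 2 in spinal cord, 0 for the difference, 25 in dKO and 24 in WT embryos, and those of the exon index at 0 and 1, so it changed no count. Dim probe sets limit what these arrays show: 386 of 656 lay above the floor.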
